A study of Homo sapiens with 21 samples.

Results

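The expression of 6 known transcriptional targets of p53 that act in metabolism and redox balance was followed across all groups of the series. The genes were C12orf5, whose current symbol is TIGAR, TP53I3, FDXR, GLS2, SCO2 and ALDH4A1. They were chosen by symbol, with earlier results of these data known, and all 6 were found among the 23368 genes of the expression table. The data were RNA-seq of hTERT-HPNE cells, an immortalized nontransformed human pancreatic line held in culture by a telomerase transgene, in 7 groups of 3 biological replicates (21 libraries). One group was untreated, 3 groups were harvested 4, 8 or 24 h after 300 μM H2O2, and 3 groups 4, 8 or 24 h after 400 ng/ml NCS (neocarzinostatin). H2O2 causes oxidative stress, and NCS is a radiomimetic drug that makes DNA double-strand breaks. All groups grew in the same medium, which contained EGF and puromycin, and the labels give no genetic difference between them. The same 3 untreated libraries, harvested at 0 h, served as control for both treatments, and there was no untreated group at 4, 8 or 24 h.

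p53 is a transcription factor that is stabilized by DNA damage and other stress and then raises the transcription of genes for cell cycle arrest, DNA repair, apoptosis and metabolism. TIGAR lowers fructose-2,6-bisphosphate and so turns glucose from glycolysis towards the pentose phosphate pathway, the main source of NADPH. TP53I3 (PIG3) is a quinone oxidoreductase, and FDXR is the mitochondrial ferredoxin reductase, which passes electrons from NADPH to ferredoxin for iron-sulfur cluster and steroid synthesis. GLS2 is a mitochondrial glutaminase, SCO2 delivers copper to cytochrome c oxidase, and ALDH4A1 oxidizes the proline breakdown product pyrroline-5-carboxylate to glutamate.

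The deposited values are rLog values, normalized log2 levels that the authors made from gene counts. The rLog transformation shrinks differences between libraries, and does so most for weakly counted genes. It does not correct for gene length, so levels of different genes are not compared here. The values give no counts, and the depth of each library is unknown. Library medians ran from 7.14 to 7.19. All groups entered one limma model, and a gene was called higher or lower at an adjusted p-value under 0.05 over the 19694 genes whose values varied. In bulk RNA, fewer cells of a type and less RNA per cell cannot be told apart.

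The label of the line was checked against marker genes. Of the ductal and epithelial markers, KRT18 lay between 11.4 and 11.9 and KRT8 between 7.73 and 8.28, while KRT19 lay between 0.58 and 0.73 and EPCAM and CFTR lay below 0 in every library. Of 4 genes of the progenitor line, NES lay between 11.8 and 12.3 and TERT between 13.9 and 14.4, while PROM1 lay between -1.12 and -1.06. Against untreated cells 3 of these 4 genes, NES and TERT among them, were lower in H2O2 at 24 h (19.9% of all genes) and 2 in NCS at 24 h (18.4%). The acinar genes PRSS1, CELA3A and PTF1A, the endocrine gene INS and the T cell gene CD3E were listed at 0 in every library, the endothelial gene CDH5 lay below 0, and PTPRC and PECAM1 reached at most 0.98 and 2.42. Of the 5 mesenchymal markers, FN1 lay between 19.67 and 20.31 and ACTA2 between 11.4 and 11.9. Relative to NCS, H2O2 had 3 of these 5 mesenchymal genes lower and 2 higher at 4 h, 4 lower and 1 higher at 8 h, and 4 lower and none higher at 24 h, with median differences of -0.20, -0.34 and -0.45. Of all genes, 18%, 15.4% and 10.9% were lower at these times and 26.3%, 18.7% and 11% higher. Their part in the differences between the treatments was not tested.

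One library stood apart from its group. The root mean square difference over genes between replicate 2 of H2O2 at 8 h and the other replicates of that group was 0.105 and 0.108, against 0.0815 between those other replicates and at most 0.0799 within any other group. Without it, the difference between H2O2 at 8 h and untreated cells was 0.83 for TIGAR, 0.12 for TP53I3, 1.30 for FDXR and -0.32 for ALDH4A1, each of them still called, against 0.75, 0.12, 1.17 and -0.27 with it. The list genes named below for H2O2 at 8 h, against untreated cells or NCS, also kept their calls without it.

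The regions upstream of the 3 genes that rose in both treatments are shown because these genes share a known regulator. They are the 250 bases before the RefSeq transcription start (GRCh38.p14). Of the 6 genes, 5 had an entry in the promoter table, and SCO2 had none. Capitals mark an exact match to the consensus p53 half-site.
TIGAR, chr12:4320963-4321212, plus strand: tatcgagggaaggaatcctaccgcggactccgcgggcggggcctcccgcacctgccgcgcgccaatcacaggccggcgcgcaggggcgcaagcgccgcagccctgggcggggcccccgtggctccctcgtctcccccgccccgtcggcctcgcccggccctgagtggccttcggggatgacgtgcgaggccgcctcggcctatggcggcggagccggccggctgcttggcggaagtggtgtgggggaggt
TP53I3, chr2:24084835-24085084, minus strand: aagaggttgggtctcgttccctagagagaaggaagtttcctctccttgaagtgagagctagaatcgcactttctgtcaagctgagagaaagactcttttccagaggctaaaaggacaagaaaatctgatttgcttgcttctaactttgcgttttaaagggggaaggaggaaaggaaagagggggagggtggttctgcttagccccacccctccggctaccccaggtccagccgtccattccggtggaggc
FDXR, chr17:74872995-74873244, minus strand: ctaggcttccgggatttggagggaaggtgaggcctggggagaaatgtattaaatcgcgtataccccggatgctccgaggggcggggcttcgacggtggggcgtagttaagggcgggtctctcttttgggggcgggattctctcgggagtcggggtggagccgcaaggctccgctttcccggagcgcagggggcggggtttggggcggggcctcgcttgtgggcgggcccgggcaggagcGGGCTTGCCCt

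The half-site was searched on both strands from 250 bases before the start to 50 bases after it. Among the entries of the 5 genes, only one of the FDXR starts held a match, GGGCTTGCCC, whose first base lies at position -11 from the start. A match was present in 6.63% of all 35116 promoters of this length. A match is a description of letters, and its absence from the other windows says nothing of p53 binding, which can lie in introns or farther upstream.

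TIGAR, TP53I3 and FDXR rose after both treatments, whereas GLS2, SCO2 and ALDH4A1 were not called after NCS at any time, except ALDH4A1 at 24 h under quantile normalization (0.15, adjusted p = 0.0486 from limma). Against untreated cells, 3 of the 6 genes were higher and none lower in H2O2 at 4 h, where 26.2% of all tested genes were called higher and 19.7% lower. In H2O2 at 8 h 3 were higher and 1 was lower, beside 18.8% and 18.6% of all genes, and at 24 h 3 were higher and none lower, beside 20.2% and 19.9%. In NCS, 3 of the 6 were higher and none lower at each time, beside 7.47% higher and 9.72% lower of all genes at 4 h, 10.5% higher and 13.3% lower by 8 h, and 19.6% higher and 18.4% lower by 24 h. The genes higher in H2O2 at 4 h were TIGAR, FDXR and GLS2, and in the other 5 groups they were TIGAR, TP53I3 and FDXR. After aligning library medians, a shift of the all-gene median of at most 0.03, these shares became 20.9% higher and 24.4% lower in H2O2 at 4 h, 18.2% and 33.4% in H2O2 at 24 h, and 8.79% and 29.9% in NCS at 8 h. Among genes with a mean value of at least 5, 23.1%, 27% and 32.1% were higher in H2O2 at 4, 8 and 24 h. In NCS 14%, 19% and 32.3% of them were higher. Those lower were 33.3%, 32% and 33.2% in H2O2 and 18.4%, 24% and 31.1% in NCS. GLS2 and SCO2 lie below that mean. Each of these comparisons uses the same untreated libraries.

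The study called genes at an adjusted p-value under 0.05 and an absolute log2 fold change over 1, estimated from counts. Applied to differences of rLog values, which are shrunken, that rule called FDXR alone, in H2O2 at 8 h (0.518% of all genes called) and 24 h (1.61%) and in NCS at 4 h (0.218%), 8 h (0.34%) and 24 h (1.5%). It called none of the 6 in H2O2 at 4 h (0.696% of all genes).

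**Figure D1:**
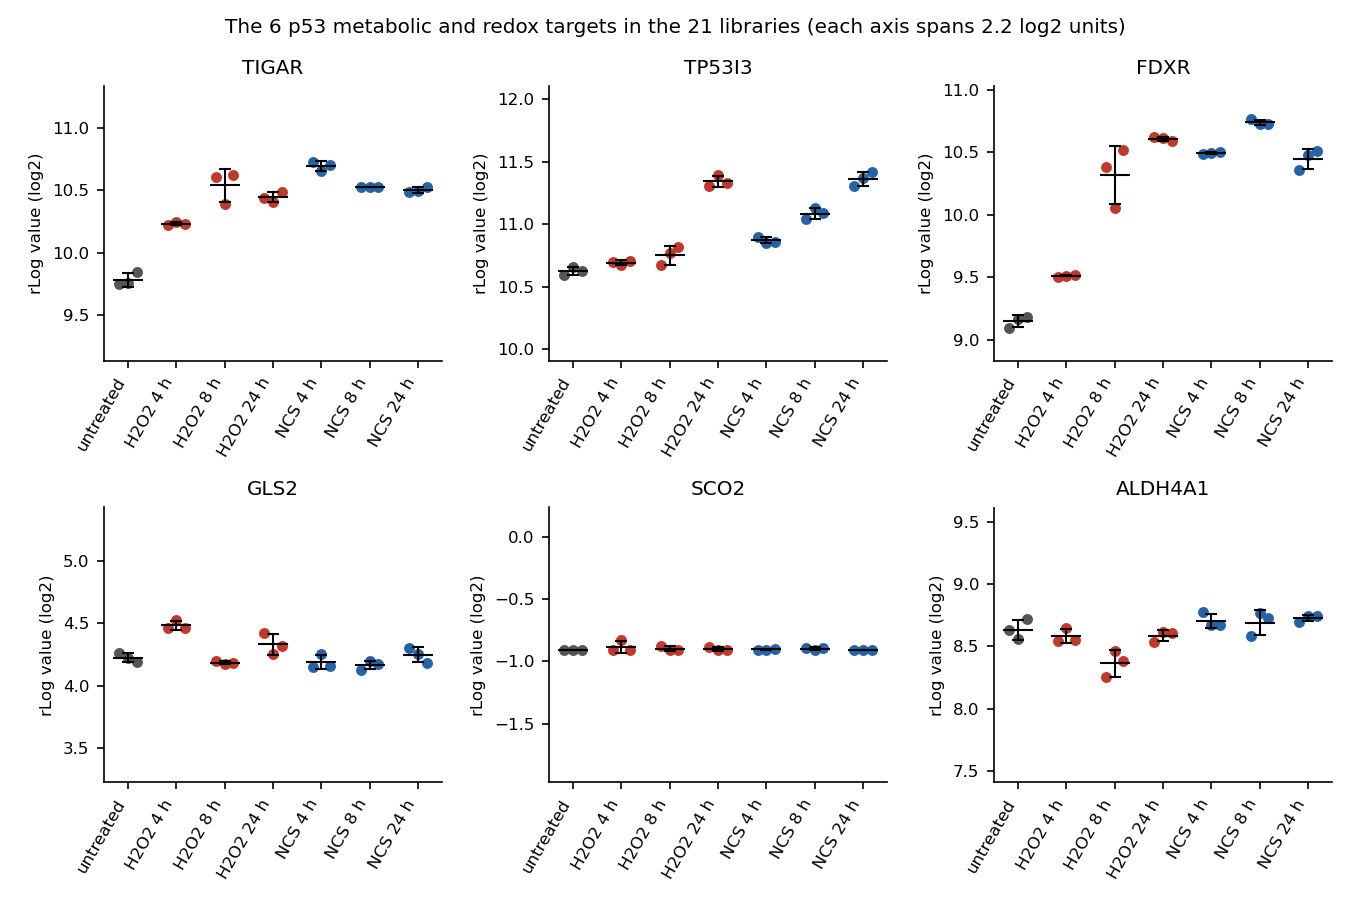
rLog value (log2) of each of the 6 genes in each of the 21 libraries by group, with the group mean as a line and the SD as an error bar (n = 3). TIGAR, TP53I3 and FDXR lie above untreated cells after treatment, and SCO2 lies between -0.91 and -0.83 throughout. GLS2 lies between 4.13 and 4.53, highest in H2O2 at 4 h, and ALDH4A1 between 8.25 and 8.77, lowest in H2O2 at 8 h.

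FDXR showed the largest change of the 6 genes in every group but H2O2 at 4 h. Its rLog values were 9.10, 9.17 and 9.18 in untreated cells and 9.51, 9.51 and 9.52 in H2O2 at 4 h. Those of H2O2 were 10.38, 10.06 and 10.52 by 8 h, then 10.63, 10.61 and 10.59 by 24 h. With NCS the 4 h values were 10.49, 10.49 and 10.51, the 8 h values 10.77, 10.73 and 10.73, and the 24 h values 10.36, 10.48 and 10.51. Every treated library lay above every untreated one, and the H2O2 libraries at 4 h lay below all other treated libraries. In H2O2 the difference from untreated cells (SE 0.07) was 0.36, 1.17 and 1.46 at the successive times, with adjusted p of 0.00039, 7.6e-10 and 5.32e-12 from limma. In NCS it was 1.34, 1.59 and 1.30, with adjusted p of 2.78e-10, 2.22e-11 and 3.08e-11. The H2O2 change at 4 h was thus 24.8% of that at 24 h on the log2 scale, whereas the NCS change at 4 h was 104% of that at 24 h.

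FDXR was lower in H2O2 than in NCS at 4 h, with a difference of -0.98 (SE 0.07, adjusted p = 2.99e-09 from limma), and at 8 h, with one of -0.42 (adjusted p = 0.000132). By 24 h the difference was 0.16 with a 95% interval of 0.01 to 0.31, which was not called (adjusted p = 0.128). The 24 h libraries of H2O2 all lay above those of NCS for FDXR, and all below them for TIGAR and ALDH4A1, without a call. The share of all genes separated in this way is not given here. Without replicate 2 of H2O2 at 8 h, which had the lowest value of its group, the difference at 8 h was -0.29 (adjusted p = 1.78e-05). In H2O2, FDXR rose by 0.81 from 4 to 8 h and by 0.29 from 8 to 24 h (adjusted p = 4.89e-08 and 0.00251), and the steps were 0.94 and 0.16 without that replicate (adjusted p = 1.56e-11 and 0.00314). The second step was not called when only these 2 groups entered the fit (adjusted p = 0.0919). In NCS it rose by 0.25 from 4 to 8 h (adjusted p = 0.0272) and then fell by 0.29 to 24 h (adjusted p = 0.00389). The rise from 4 to 8 h in NCS lost its call when any one of the 6 libraries was left out, with adjusted p between 0.0608 and 0.0868.

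TIGAR rose early in NCS and more slowly in H2O2. Its rLog values were 9.75, 9.76 and 9.85 in untreated cells. With H2O2 the 4 h values were 10.22, 10.25 and 10.23, the 8 h values 10.61, 10.39 and 10.62, and the 24 h values 10.44, 10.41 and 10.49. With NCS the 4 h values were 10.72, 10.65 and 10.71, all 3 libraries lay at 10.52 by 8 h, and the 24 h values were 10.49, 10.49 and 10.53. No treated library overlapped the untreated ones, and the NCS libraries at 4 h were the highest of all. In H2O2 the difference from untreated cells (SE 0.04) was 0.45, 0.75 and 0.66 at the successive times, with adjusted p of 1.92e-07, 6.03e-10 and 5.91e-10 from limma. In NCS it was 0.91, 0.74 and 0.72, with adjusted p of 9.17e-11, 7.93e-10 and 1.97e-10.

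TIGAR was lower in H2O2 than in NCS at 4 h by a difference of -0.46 (SE 0.04, adjusted p = 1.34e-07 from limma). At 8 h the difference was 0.01 with a 95% interval of -0.08 to 0.11, and at 24 h it was -0.06 with an interval of -0.15 to 0.04, neither of them called (adjusted p = 0.896 and 0.437). Without replicate 2 of H2O2 at 8 h, the lowest of its group, the difference at 8 h was 0.09 and was called (adjusted p = 0.0276). In H2O2, TIGAR rose by 0.31 from 4 to 8 h (adjusted p = 1.93e-05). The step from 8 to 24 h was -0.09 and was not called (adjusted p = 0.108), but was called without that replicate (-0.17, adjusted p = 0.000184) and with library medians aligned (-0.11, adjusted p = 0.0373). In NCS, TIGAR fell by 0.17 from 4 to 8 h (adjusted p = 0.0147), a call that was lost without NCS replicate 1 at 4 h (adjusted p = 0.0653).

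TP53I3 had the smallest change at 4 h of the 3 rising genes in both treatments. Its rLog values were 10.60, 10.66 and 10.63 in untreated cells. With H2O2 the 4 h values were 10.70, 10.68 and 10.71, the 8 h values 10.67, 10.77 and 10.82, and the 24 h values 11.30, 11.40 and 11.33. With NCS the 4 h values were 10.90, 10.85 and 10.86, the 8 h values 11.04, 11.13 and 11.09, and the 24 h values 11.31, 11.37 and 11.42. The NCS libraries did not overlap between times, while the H2O2 libraries at 4 and 8 h overlapped each other and those at 24 h lay far above both. In H2O2 the difference from untreated cells (SE 0.04) was 0.07, 0.12 and 0.72 at the successive times, with adjusted p of 0.135, 0.00909 and 6.36e-12 from limma, and its 95% interval at 4 h ran from -0.01 to 0.14. In NCS it was 0.25, 0.46 and 0.74, with adjusted p of 5.94e-05, 1.66e-08 and 4.34e-12. The H2O2 change at 8 h was 17.4% of that at 24 h, against 62.3% for NCS.

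TP53I3 was lower in H2O2 than in NCS by differences of -0.18 at 4 h and -0.33 at 8 h (SE 0.04, adjusted p = 0.000457 and 8.71e-07 from limma). By 24 h the difference was -0.02 with a 95% interval of -0.10 to 0.05 (adjusted p = 0.808). In H2O2 the step from 4 to 8 h was 0.06 and was not called (adjusted p = 0.21). Without H2O2 replicate 1 at 8 h this step was 0.10 and was called (adjusted p = 0.0311). From 8 to 24 h in H2O2, TP53I3 then rose by 0.59 (adjusted p = 2.29e-10). In NCS it rose at both steps, by 0.21 and by 0.28 (adjusted p = 0.000377 and 5.95e-06). The call in H2O2 at 8 h was lost when replicate 3 at 8 h was left out (difference 0.09, adjusted p = 0.0645) and when only untreated cells and H2O2 at 8 h entered the fit (adjusted p = 0.0759).

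**Figure D2:**
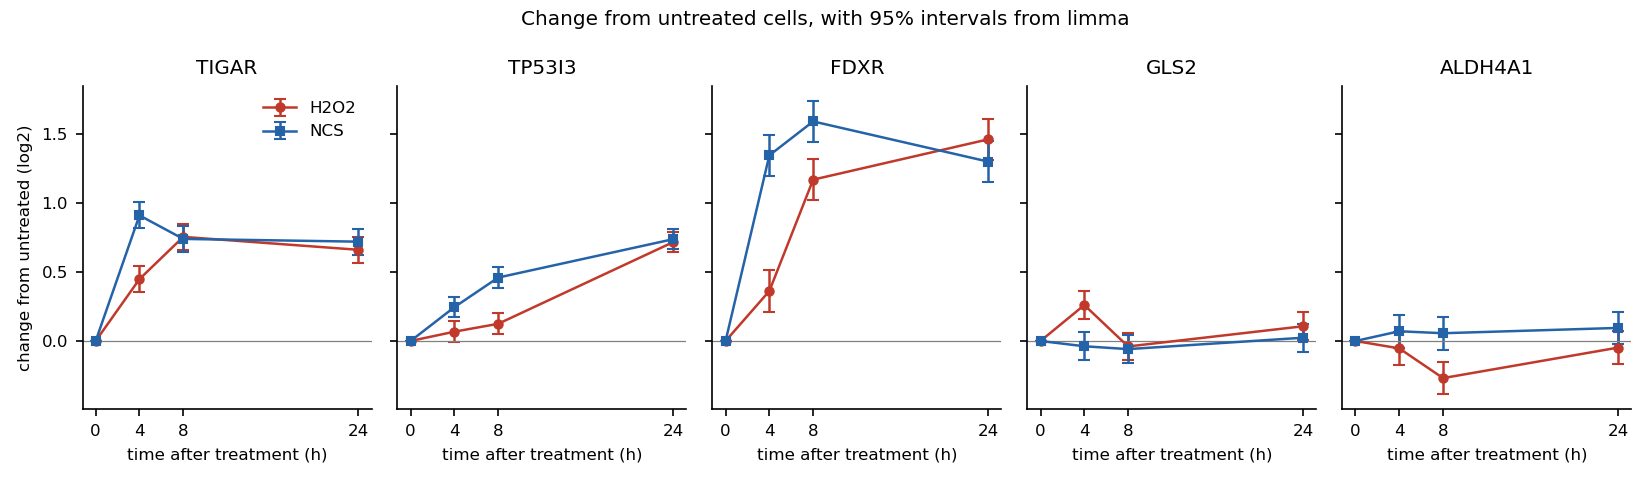
Mean change from untreated cells (difference of rLog values, log2) against time in h after H2O2 or NCS for 5 of the genes, without SCO2, with 95% intervals from limma (n = 3 per group). TIGAR is higher after NCS than after H2O2 at 4 h, FDXR and TP53I3 at 4 and 8 h, and the intervals of the treatments meet at 24 h for all 3.

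GLS2 was called higher after H2O2 at 4 h. Its rLog values were 4.26, 4.22 and 4.19 in untreated cells, and 4.46, 4.53 and 4.47 in H2O2 at 4 h. They were 4.20, 4.17 and 4.18 in H2O2 at 8 h and 4.42, 4.25 and 4.32 at 24 h. In NCS they lay between 4.13 and 4.31 at all times. The 3 libraries of H2O2 at 4 h were the highest of the 21, and all other groups overlapped their neighbours in the order of means. In H2O2 the difference from untreated cells (SE 0.05) was 0.26, -0.04 and 0.11 at the successive times, with adjusted p of 0.000197, 0.607 and 0.0894 from limma, and in NCS it was -0.04, -0.06 and 0.02 at 4, 8 and 24 h. The 95% interval in H2O2 at 24 h ran from 0.01 to 0.21, and the difference was called without H2O2 replicate 2 at 24 h (0.15, adjusted p = 0.032) and without a variance trend (adjusted p = 0.0479). From 4 to 8 h in H2O2, GLS2 fell by 0.30 (adjusted p = 4.78e-05). At 4 h GLS2 was higher in H2O2 than in NCS (difference 0.30, adjusted p = 5.08e-05), whereas TIGAR, TP53I3 and FDXR were lower. The mean of GLS2 over all libraries was 4.26. In H2O2 against NCS at 4 h, 5184 of all tested genes were called higher and 3554 lower. Among genes with a mean value of at least 5 these counts were 2746 and 3555. Whether the GLS2 difference was part of a shift shared by weakly counted genes was not tested.

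GLS2 shared 77.1% of its exonic bases with SPRYD4 on the opposite strand, in an annotation of another build (GENCODE v29, GRCh38) than that of the files (hg19). The libraries were stranded, but the strand setting of the counting is not given in the sources used here. SPRYD4, chosen after this overlap was seen, was higher in H2O2 at 4 h by 0.12 (adjusted p = 0.0381 from limma) and in NCS at 8 h by 0.14 (adjusted p = 0.0298). Its part in the GLS2 values was not tested. After quantile normalization the GLS2 difference in H2O2 at 4 h was 0.09 and was not called (adjusted p = 0.14).

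ALDH4A1 fell in H2O2 at 8 h and was not called against untreated cells in the other 5 groups. Its rLog values were 8.63, 8.56 and 8.72 in untreated cells. With H2O2 the 4 h values were 8.55, 8.65 and 8.55, the 8 h values 8.25, 8.46 and 8.38, and the 24 h values 8.54, 8.61 and 8.61. In NCS they lay between 8.58 and 8.77 at all times. The H2O2 libraries at 8 h were the lowest 3 of the 21. They differed from untreated cells by -0.27 (SE 0.06, adjusted p = 0.000778 from limma) and from NCS at 8 h by -0.32 (adjusted p = 0.00016), and by -0.32 and -0.37 without replicate 2. At 4 and 24 h its difference between the treatments was -0.12 and -0.14, neither of them called (adjusted p = 0.0841 and 0.0823). From 8 to 24 h in H2O2, ALDH4A1 rose by 0.22 (adjusted p = 0.00339), and by 0.27 without replicate 2 at 8 h. In NCS the differences from untreated cells were 0.07, 0.06 and 0.09 at 4, 8 and 24 h, with 95% intervals that reached at most 0.21, and under quantile normalization the difference at 24 h was 0.15 and was called (adjusted p = 0.0486). In GENCODE v29, 41.1% of the exonic bases of ALDH4A1 and 42.6% of those of TIGAR are shared with an unnamed gene on the same strand, so reads there may have been counted for either or for none.

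SCO2 lay between -0.91 and -0.83 in all 21 libraries, near the bottom of a scale that ran from -2.31 to 20.31. It was not called in any comparison with all libraries, and its largest difference from untreated cells was 0.03, in H2O2 at 4 h. Its interval there ran from -0.00 to 0.06 (adjusted p = 0.161 from limma). At such a level the transformation leaves almost no spread between libraries, and a change of SCO2 was not resolved in these values. Without replicate 1 or replicate 3 of H2O2 at 4 h the difference there was 0.04 and was called (adjusted p = 0.0485 and 0.0459). These calls rest on 1 library, replicate 2, which lay at -0.83, while replicates 1 and 3 lay at -0.91, like the untreated libraries. SCO2 shares 61.6% of its exonic bases with TYMP or an unnamed gene in GENCODE v29. The part shared with TYMP, on the same strand, is 24.9%, and that with the unnamed gene, on the opposite strand, 36.7%. TYMP, which codes for thymidine phosphorylase, lay between 4.95 and 5.74. Against untreated cells it was higher in H2O2 by 0.58, 0.23 and 0.37 at 4, 8 and 24 h (SE 0.08, adjusted p = 5.25e-06, 0.0223 and 0.000682). TYMP was also called higher after NCS, at 24 h alone, by 0.21 (adjusted p = 0.0354). Its H2O2 level exceeded the NCS level by 0.50 at 4 h (adjusted p = 3.31e-05), and the treatments were not called different at 8 or 24 h. The neighbouring genes ODF3B and NCAPH2 had their largest differences from untreated cells in H2O2 at 4 h (0.41, adjusted p = 3.67e-06) and in NCS at 24 h (-0.87, adjusted p = 4.86e-11). SCO1, the paralog of SCO2, lay between 9.31 and 9.69 and rose in H2O2 at 8 h (0.22, adjusted p = 8.41e-05) and in NCS at 4 h (0.15, adjusted p = 0.00618).

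Between the treatments at the same time, 1 of the 6 genes was higher and 3 were lower in H2O2 than in NCS at 4 h, where 26.3% of all genes were higher and 18% lower. At 8 h none was higher and 3 were lower (18.7% and 15.4% of all genes), and at 24 h none was called by limma (11% and 10.9%). Some alternative fits called FDXR or ALDH4A1 at 24 h, as given below. With library medians aligned the shares of all genes were 36.6% higher and 13.7% lower at 8 h and 9.06% and 29.5% at 24 h, and under quantile normalization 20.2% and 23.8% at 4 h. Among genes with a mean value of at least 5 they were 23.5% and 30.4% at 4 h. At 8 h they were 27.7% and 26.6% among these genes, and at 24 h 19.7% and 19.1%. The 3 lower genes were TIGAR, TP53I3 and FDXR at 4 h and TP53I3, FDXR and ALDH4A1 at 8 h. Whether the difference between treatments at 24 h departed from that at 4 h was tested as an interaction, for which 16.6% of all genes were called higher and 22.7% lower. The interaction was 1.14 for FDXR (SE 0.10, adjusted p = 7.91e-08 from limma), 0.40 for TIGAR (adjusted p = 6e-05) and 0.16 for TP53I3 (adjusted p = 0.0185), each from a lower value in H2O2 at 4 h. It was -0.22 for GLS2 (adjusted p = 0.0167) and was not called for SCO2 or ALDH4A1. The GLS2 interaction was -0.07 under quantile normalization (adjusted p = 0.424), and those of GLS2 and TP53I3 were not called without H2O2 replicate 2 at 24 h (adjusted p = 0.052 and 0.057). Between successive times in H2O2, 2 of the 6 genes rose and 2 fell from 4 to 8 h (18% and 27.7% of all genes), and 4 rose and none fell from 8 to 24 h (19.4% and 23.2%). In NCS, 2 rose and 1 fell from 4 to 8 h (6.16% and 7.5% of all genes), and 1 rose and 1 fell from 8 to 24 h (14.9% and 15%). With the added limit on the size of the difference, none of the 6 was called between the treatments at 4, 8 or 24 h (0.574%, 0.162% and 0.0152% of all genes) or between successive times (0.208% and 0.416% in H2O2, 0.0152% and 0.371% in NCS), and FDXR was called in the interaction (0.564%).

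**Figure D3:**
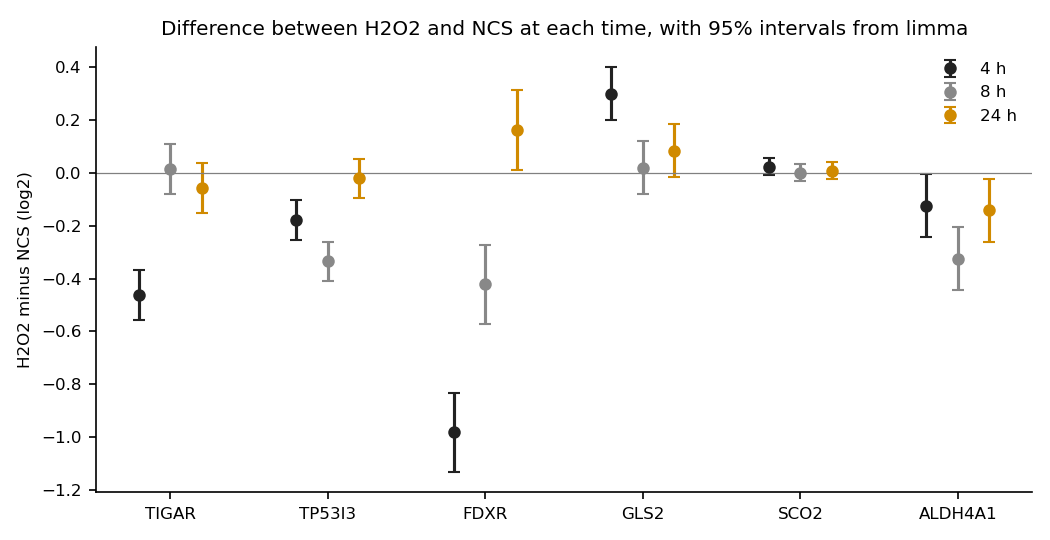
Difference of mean rLog values between H2O2 and NCS (log2) at 4, 8 and 24 h for each of the 6 genes, with 95% intervals from limma (n = 3 per group). FDXR goes from -0.98 at 4 h to 0.16 at 24 h, TIGAR departs from 0 at 4 h, and TP53I3 at 4 and 8 h.

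The same libraries were examined for 18 other genes of the p53 pathway. In H2O2, 13 of them were higher and 2 lower at 4 h, 15 higher and 1 lower by 8 h, and 16 higher and 1 lower by 24 h. In NCS, 16 were higher at each time, with none lower at 4 h and 1 lower at 8 and 24 h, beside at most 26.2% higher and 19.9% lower of all genes in any group. The median difference of these genes lay between 0.55 and 0.75 in the 6 groups, and the median of all genes was 0.00 in H2O2 at 4 h, where it was highest. CDKN1A, the inhibitor of cyclin-dependent kinases, was higher at 4 h by 1.21 in H2O2 and by 1.58 in NCS (adjusted p = 3.31e-10 and 4.57e-11 from limma). MDM2, the ubiquitin ligase of p53, was higher by 0.79 and 1.55 (adjusted p = 2.82e-09 and 2.57e-12). Compared with NCS, 13 of the 18 genes were lower and 1 higher in H2O2 at 4 h, against 4 lower and 5 higher at 8 h (3 and 9 without H2O2 replicate 2) and 2 lower and 8 higher at 24 h. Of all genes, 18%, 15.4% and 10.9% were lower in H2O2 than in NCS at these times and 26.3%, 18.7% and 11% higher. At 4 h ZMAT3 was lower by a difference of -0.82 (adjusted p = 1.5e-09), beside the -0.98 of FDXR.

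Of 17 other metabolic genes linked to p53, 6, 10 and 12 were higher in H2O2 at 4, 8 and 24 h and 9, 9 and 11 in NCS, and at most 2 were lower in any group. Over all genes 26.2%, 18.8% and 20.2% were higher in H2O2 and 7.47%, 10.5% and 19.6% in NCS. Among genes with a mean value of at least 5 these shares were 23.1%, 27% and 32.1% in H2O2 and 14%, 19% and 32.3% in NCS. The median difference of the 17 genes lay between 0.07 and 0.36. SESN2, a stress-induced sestrin that restrains mTORC1 signalling, differed from the 3 rising genes in the order of the treatments. At 4 h it was higher by 1.87 in H2O2 and by 1.10 in NCS (adjusted p = 2.88e-13 and 1.38e-09 from limma), and exceeded its NCS level in H2O2 at 4, 8 and 24 h by 0.77, 0.97 and 0.55 (adjusted p = 3.35e-08, 5.71e-09 and 6.24e-06). SESN1 was lower in H2O2 than in NCS at 4 h (difference -0.50, adjusted p = 2.02e-06). TP53INP1, an autophagy and antioxidant protein, was lower in H2O2 than in NCS at 4 h by a difference of -0.37 (adjusted p = 9.27e-06). It was higher in H2O2 than in NCS at 8 and 24 h, by 0.46 and 0.36 (adjusted p = 1.29e-06 and 3.18e-05). Against untreated cells TP53INP1 was called higher in all 6 treated groups.

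**Figure D4:**
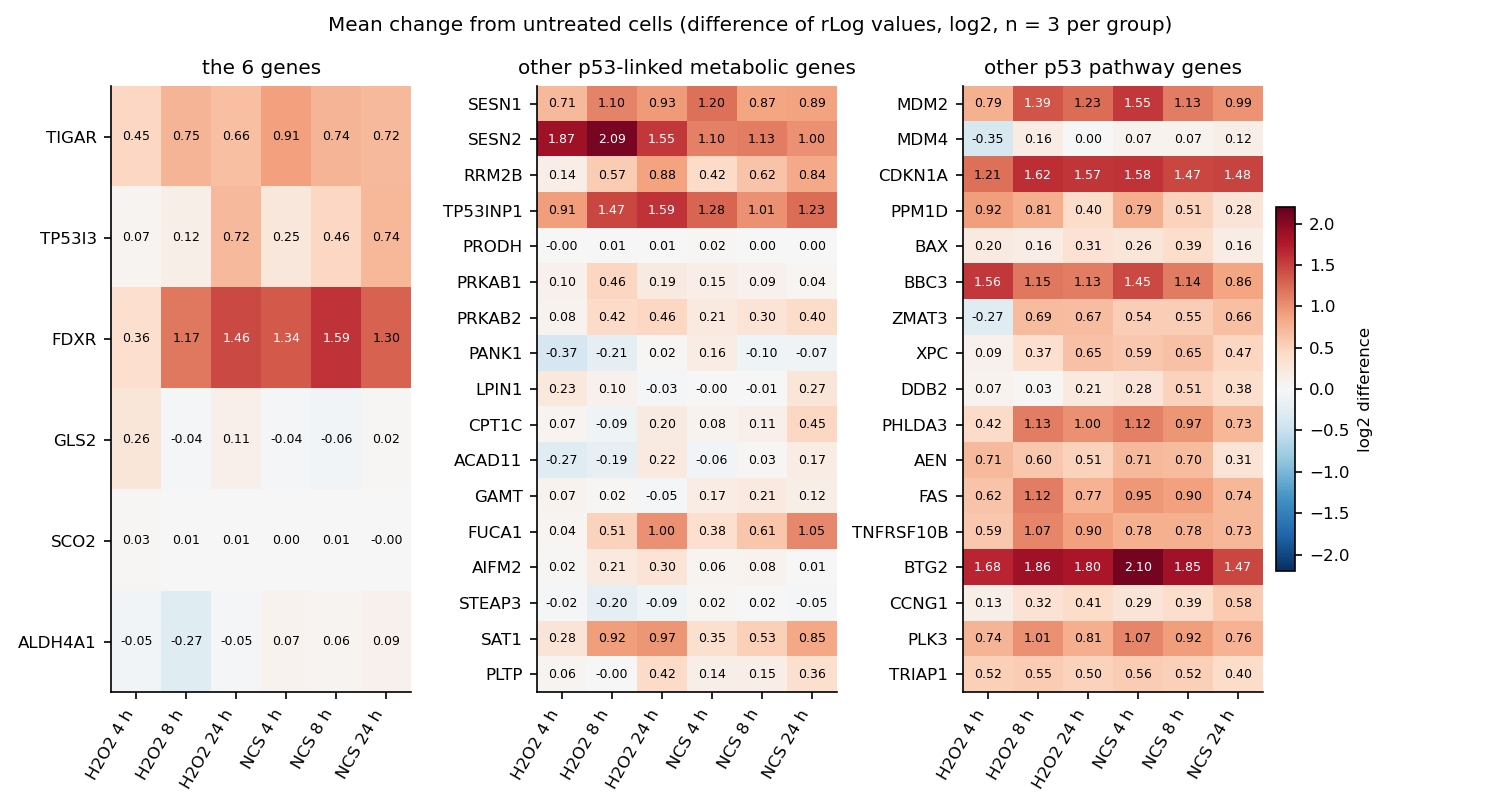
Mean change from untreated cells (difference of rLog values, log2) in the 6 treated groups for the 6 genes, for 17 other p53-linked metabolic genes and for 17 of the 18 other genes of the p53 pathway. Each cell prints its value, with red for higher and blue for lower, and the H2O2 column at 4 h is lower than the NCS column at 4 h for FDXR, TIGAR, MDM2 and ZMAT3 and higher for SESN2.

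The enzymes around each gene were taken from lists of the same pathways. Around TIGAR, 17 of 18 genes of glycolysis and the pentose phosphate pathway had varying values, and 8 were higher in H2O2 at each time against 6 in NCS, with 1 to 5 lower and a median difference between 0.01 and 0.06. Over all genes, from 7.47% to 26.2% were higher and from 9.72% to 19.9% lower in the 6 treated groups. PFKFB3, which makes fructose-2,6-bisphosphate, the substrate of TIGAR, was higher at 4 h by 0.89 in H2O2 and by 0.39 in NCS (adjusted p = 1.3e-13 and 3.37e-08 from limma). At 24 h its difference was -0.11 in H2O2 (adjusted p = 0.0057) and -0.07 in NCS (adjusted p = 0.0896). HK2, the first enzyme of glycolysis, was higher in H2O2 at 4 h by 0.84 and lower in NCS at 4 h by a difference of -0.26 (adjusted p = 8.85e-10 and 0.0029). PFKFB4 was higher in NCS at 4 h by 0.44 and lower in H2O2 at 4 h by a difference of -0.15 (adjusted p = 1.73e-06 and 0.0141), and at 24 h it was higher by 0.67 in NCS and 0.65 in H2O2.

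Around TP53I3, of 10 quinone and related reductases 1, 2 and 5 were higher in H2O2 at 4, 8 and 24 h and 1, 0 and 3 in NCS, while 1 to 3 were lower in each group and the median difference lay between -0.05 and 0.14, beside the same shares of all genes. NQO1, a quinone reductase of the antioxidant response, was higher in H2O2 by 0.50 at 8 h and by 0.78 at 24 h (adjusted p = 2.86e-09 and 1.37e-12 from limma) and was not called in NCS at any time. It was higher in H2O2 than in NCS by 0.81 at 24 h (adjusted p = 3.13e-11), where the TP53I3 levels differed by -0.02. PTGR1 at 24 h also exceeded its NCS level in H2O2, by 0.42 (adjusted p = 5.24e-07), and VAT1 was higher than in untreated cells at 24 h in both, by 0.36 and 0.34, and lower in NCS at 8 h by a difference of -0.07 (adjusted p = 0.0336).

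Around FDXR, 16 of 17 genes of the ferredoxin and iron-sulfur system had varying values. Between 1 and 5 of them were higher and between 2 and 5 lower in each treated group, beside 7.47% to 26.2% and 9.72% to 19.9% of all genes, and their median difference lay between -0.01 and 0.03. ISCU, the scaffold on which iron-sulfur clusters are built, had the largest called change among those with a mean value of at least 5. It was higher in NCS by 0.23, 0.35 and 0.55 at 4, 8 and 24 h (adjusted p = 4e-05, 1.14e-07 and 6.11e-11 from limma), and in H2O2 its differences were 0.01, 0.16 and 0.60 (adjusted p = 0.783, 0.000578 and 1.45e-11). ISCU was lower in H2O2 than in NCS at 4 and 8 h by differences of -0.21 and -0.19 (adjusted p = 2.17e-05 and 8.22e-05). HSPA9, the mitochondrial chaperone of this system, had the opposite order and was higher in H2O2 than in NCS by 0.42 at 8 h (adjusted p = 3.83e-08). GLRX5 was higher than in untreated cells in H2O2 at 4 h by 0.10 (adjusted p = 0.0104), and was lower at 24 h by differences of -0.27 in H2O2 and -0.34 in NCS and in NCS at 8 h by one of -0.22.

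Around GLS2, of 12 genes of glutamine and glutamate metabolism 7 were higher and none lower in H2O2 than in NCS at 4 h, 8 and 1 at 8 h, and 4 and none at 24 h. Over all genes the shares called higher were 26.3%, 18.7% and 11% at the successive times, and those called lower 18%, 15.4% and 10.9%. The median difference of the 12 genes between the treatments was 0.12, 0.25 and 0.05, against 0.01 at 4 h and -0.00 at 8 and 24 h over all genes. At 8 h GPT2, a mitochondrial alanine aminotransferase, was higher in H2O2 than in NCS by 1.12, SLC1A5, a glutamine transporter, by 0.86, and GCLM, a subunit of the first enzyme of glutathione synthesis, by 0.80 (adjusted p = 7.81e-10, 1.08e-10 and 1.01e-10 from limma). GLS2 itself differed by 0.02 at that time. Around ALDH4A1, of 11 proline genes 5, 4 and 4 were higher and 0, 3 and 4 lower in H2O2 at the successive times, and 1, 2 and 5 were higher and 1 lower each time in NCS. The shares of all genes were 7.47% to 26.2% higher and 9.72% to 19.9% lower. The median difference of the 11 genes lay between 0.01 and 0.07. PYCR1, which makes proline from pyrroline-5-carboxylate, was higher in H2O2 by 0.43 at 8 h (adjusted p = 8.04e-08), and was also called higher in H2O2 at 4 and 24 h, by 0.32 and 0.31, and in NCS at 24 h, by 0.38. ALDH18A1, which makes the precursor of proline, was higher in H2O2 at 4 h by 0.13 and lower at 8 and 24 h by differences of -0.13 and -0.38 (adjusted p = 0.00402, 0.00318 and 1.49e-08). P4HA2, a collagen prolyl hydroxylase, was higher in all 6 treated groups, by between 0.10 in NCS at 4 h and 0.47 in NCS at 24 h (adjusted p = 0.00669 and 8.97e-12). PRODH, the first enzyme of proline breakdown, was named after its values were seen. It lay between -1.06 and -1.01 and was not called in any treated group.

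Of 6 other aldehyde dehydrogenases, most of them mitochondrial, 0 to 2 were higher and 0 to 2 lower in each treated group, beside 7.47% to 26.2% and 9.72% to 19.9% of all genes, and their median difference lay between -0.03 and 0.10. ALDH2 was higher at 24 h by 0.97 in H2O2 and by 0.44 in NCS (adjusted p = 1.08e-10 and 5.86e-06 from limma), and ALDH1B1 was lower by differences of -0.42 and -0.23 (adjusted p = 1.45e-10 and 6.21e-07). At 4 h ALDH1B1 was lower in H2O2 by a difference of -0.20 and higher in NCS by 0.28, and it was also higher in NCS by 0.12 at 8 h (adjusted p = 5.56e-06, 2.7e-07 and 0.00188). ALDH5A1 was higher at 24 h by 0.45 in H2O2 and by 0.24 in NCS (adjusted p = 0.000411 and 0.0442), and the treatments were not called different (adjusted p = 0.107). Around SCO2, of 17 genes of cytochrome c oxidase assembly 1 to 4 were higher and 0 to 3 lower in each treated group, beside the same shares of all genes, with a median difference between 0.00 and 0.05. COX19, an assembly factor in copper delivery, was higher in H2O2 at 4, 8 and 24 h, by 0.61 at 4 h (adjusted p = 3.34e-10). It was not called in NCS at 4 h (difference 0.03, adjusted p = 0.768), but was called higher in 1 later NCS group. At 4 h the treatments differed by 0.58 (adjusted p = 6.63e-10). COX10 was lower in H2O2 at 4 h by a difference of -0.37 and higher at 8 h by 0.17 (adjusted p = 5.6e-06 and 0.0109).

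The genes whose changes over the 6 treated groups were closest to those of each rising gene were found among 4596 genes called in at least 4 of the 6 comparisons with untreated cells. Closeness was the root mean square of the differences in change. For TIGAR these were TOB1 (0.103), PIDD (0.103) and TNFRSF10A (0.128). For TP53I3 they were FAM210B (0.0775), SDSL (0.0804) and RETSAT (0.0844). For FDXR the closest were MDM2 (0.325), TP53INP1 (0.356) and PHLDA3 (0.402). All were farther from FDXR than the genes closest to TIGAR and TP53I3 were from those. Closeness was not scaled to the size of the change. FDXR changed by up to 1.59 (NCS at 8 h). TIGAR changed by at most 0.91 (NCS at 4 h) and TP53I3 by at most 0.74 (NCS at 24 h). The larger distances of FDXR therefore do not show that its course over time was more distinct. MDM2 changed by 0.79 in H2O2 and 1.55 in NCS at 4 h, where FDXR changed by 0.36 and 1.34.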

How the data were processed

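hTERT-HPNE cells were untreated or treated with 300 μM H2O2 or 400 ng/ml NCS, and RNA was taken at 0, 4, 8 and 24 h from 3 biological replicates per group (TruSeq Stranded mRNA libraries). According to the study's methods and the submitters' processing notes, the authors aligned reads with HISAT2 (build hg19), counted them with HTSeq in Galaxy, and deposited log2 values made with the rLog transformation of DESeq2, which normalizes for library size and shrinks differences. Tool versions, annotation and the strand setting of the counting are not given in the sources used here. The deposited table holds no counts, so no depth, counting interval or floor was computed.

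The rLog values were used as deposited. The table lists 23368 genes. Those at 0 throughout (3674) were dropped, which left 19694 to test. Gene names included 28 turned into dates, and 2 names were listed more than once. limma 3.58.1 (R 4.3.3) was fitted once to the 7 groups, with trend estimation of the variance and p-values adjusted by Benjamini-Hochberg over the tested genes, in 14 comparisons. Tested on simulated data for H2O2 at 4 h against untreated cells (19694 genes), it recovered 99 of 100 genes changed by 0.5 and 100 of 100 changed by 1 on the log2 scale, with 19 false calls, or 8.72% of the calls made. That false share lay above the limit of 0.05. Only genes with a mean value of at least 5 were changed. Smaller differences and weaker genes such as GLS2 were therefore not covered. A gene was called at an adjusted p-value under 0.05. For a single gene, an exact permutation test of 3 libraries against 3 cannot give a two-sided p below 0.1 and was not used.

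The 6 genes and the gene lists were chosen with earlier results of these data known. Named besides the 6 genes were genes of the p53 pathway list, from each other list up to 3 genes with the largest called difference from untreated cells (those with a mean value of at least 5 first), the neighbours and paralogs of the 6 genes, and the 3 genes closest in change to each gene called in at least 4 of 6 comparisons with untreated cells. SPRYD4 and PRODH were named after their values were seen, and 2 genes of the lists are counted with them but not reported singly here. Marker lists covered ductal and epithelial, progenitor, acinar, endocrine, mesenchymal, and immune and endothelial genes. Exon overlaps came from GENCODE v29 (GRCh38) and promoters from RefSeq (GRCh38.p14), and no coordinates were converted. Alternatives were a replicate block, a minimum mean of 5, quantile normalization, aligned library medians, no variance trend, only the groups compared, an added limit of 1 on the log2 difference, and the omission of single libraries. Summaries and figures were made in Python 3.11.15 (pandas 2.3.3, matplotlib 3.10.9, numpy 2.4.6).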

Additional observations from a re-analysis of the deposited data

Results flagged for a closer look

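The difference between H2O2 and NCS was not the same at 24 h as at 4 h for 4 of the 6 genes, by a test of that change itself (interaction in limma, adjusted over all genes). The change was 1.14 for FDXR (SE 0.10, adjusted p = 7.91e-08), whose 3 H2O2 libraries lay below its 3 NCS libraries at 4 h and above them, without a call, at 24 h. It was 0.40 for TIGAR (SE 0.06, adjusted p = 6e-05) and 0.16 for TP53I3 (SE 0.05, adjusted p = 0.0185), both lower in all H2O2 than in all NCS libraries at 4 h. It was -0.22 for GLS2 (SE 0.07, adjusted p = 0.0167), higher in all H2O2 than in all NCS libraries at 4 h. Among all tested genes, 16.6% had a positive and 22.7% a negative interaction. The GLS2 value was -0.07 under quantile normalization (adjusted p = 0.424), and the calls of GLS2 and TP53I3 were lost without H2O2 replicate 2 at 24 h (adjusted p = 0.052 and 0.057), that of TP53I3 also without NCS replicate 1 at 24 h (adjusted p = 0.0577). With 3 libraries per group, no library was tested as an outlier.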

How the results depend on the processing

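Across the alternatives, no called difference of the 6 genes changed sign. With a replicate block, the number of the 6 genes called was unchanged in all 14 comparisons (for example 3 in NCS at 24 h and 4 for H2O2 against NCS at 4 h). Same-numbered libraries correlated by a mean of 0.0274 in their deviations from group means (range -0.149 to 0.213 over 63 pairs) and differently numbered ones by -0.0137, so the numbers were not taken to pair the libraries. With the added limit of 1 on the log2 difference, the number called was 0 in H2O2 at 4 h, 1 in each of the other 5 treated groups, 0 between treatments, 0 between successive times and 1 for the interaction, and rLog shrinkage makes this limit stricter than on counts. For H2O2 against NCS at 24 h, where none was called, 1 gene (ALDH4A1, -0.17) was called after aligning library medians or quantile normalization, and 2 genes (FDXR, 0.16, and ALDH4A1, -0.14) with a mean of at least 5 or with only the groups compared. For H2O2 at 24 h against 8 h, 2 instead of 4 were called with only the groups compared, without FDXR (adjusted p = 0.0919) and GLS2 (adjusted p = 0.0901), while TIGAR was called with library medians aligned (-0.11, adjusted p = 0.0373). Aligned medians also moved the shares of all genes called higher and lower to 18% and 37.3% in this step, to 37.2% and 12.7% from 8 to 24 h in NCS, and to 15.3% and 38.7% for the interaction. Under quantile normalization, GLS2 was not called in H2O2 at 4 h (0.09) or in the interaction (-0.07, adjusted p = 0.424). TP53I3 was called in H2O2 at 4 h under quantile normalization (0.10, adjusted p = 0.0278), and ALDH4A1 in NCS at 24 h (0.15, adjusted p = 0.0486). The cause of these shifts was not tested. GLS2 and SCO2 lie below a mean of 5 and were not tested under that filter. Of the genes that passed it, 29.8% rose and 29.3% fell from 4 to 8 h in H2O2, and 31.5% and 34.6% from 8 to 24 h. In NCS these shares were 12% and 14.6% from 4 to 8 h, and 25.8% and 26.1% from 8 to 24 h. For the interaction, 28.3% were called higher and 23.1% lower. With one library left out, the number called ranged from 3 to 4 in H2O2 at each time against untreated cells (with SCO2 added at 4 h and GLS2 at 24 h, and TP53I3 lost at 8 h), was 3 in each NCS group, was 4, 3 to 4 and 0 between treatments at 4, 8 and 24 h, 4 to 5 and 3 to 5 for the steps in H2O2, 1 to 2 and 2 for those in NCS, and 2 to 4 for the interaction. The count for NCS at 8 h against 4 h was 1 without NCS replicate 1 at 4 h, and the interaction count was 2 without H2O2 replicate 2 at 24 h, where TP53I3 and GLS2 lost their calls (adjusted p = 0.057 and 0.052). The TP53I3 interaction was also lost without NCS replicate 1 at 24 h (adjusted p = 0.0577), and the GLS2 step in H2O2 from 8 to 24 h without H2O2 replicate 1 at 24 h (adjusted p = 0.121). Depth per library is unknown, and a change of SCO2 could not be resolved at its level.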

Other observations

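Further genes of the p53 pathway list, chosen after their values were seen, had these values. XPC, which recognizes DNA lesions, was higher than in untreated cells at 4 h by 0.59 in NCS (adjusted p = 2.66e-09 from limma), and its difference in H2O2 was 0.09 (adjusted p = 0.0723). The treatments differed by -0.51 at 4 h, -0.28 at 8 h and 0.18 at 24 h (adjusted p = 4.23e-09, 1.44e-05 and 0.00192). DDB2, a damage sensor of the same repair route, was lower in H2O2 than in NCS throughout, by differences of -0.20, -0.49 and -0.17 (adjusted p = 8.5e-05, 7.95e-09 and 0.00117). BAX, a pore-forming inducer of apoptosis, was lower in H2O2 than in NCS at 4 and 8 h by differences of -0.06 and -0.22 and higher at 24 h by 0.15 (adjusted p = 0.0486, 1.11e-06 and 0.000109). BBC3 (PUMA), a mitochondrial inducer of apoptosis, was higher at 4 h by 1.56 in H2O2 and by 1.45 in NCS, and these levels were not called different (difference 0.11, adjusted p = 0.172). At 1 later time BBC3 was called higher in H2O2 than in NCS. The death receptor genes FAS and TNFRSF10B were lower in H2O2 than in NCS at 4 h by differences of -0.32 and -0.19 (adjusted p = 0.000137 and 0.0151). At 8 h both were higher in H2O2 than in NCS, by 0.22 and 0.29 (adjusted p = 0.00547 and 0.000808). Both were called higher than in untreated cells in all 6 treated groups. MDM4, an inhibitor of p53, was lower than in untreated cells in H2O2 at 4 h alone among the 6 groups (difference -0.35, adjusted p = 0.000183).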
